A study of Mus musculus with 9 samples.

Results

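The genes described here encode the intermediate filament proteins of neurons and glia: the neurofilament subunits Nefl, Nefm and Nefh, the neuronal filament proteins Ina (alpha-internexin) and Prph (peripherin), and Vim (vimentin), Gfap (glial fibrillary acidic protein) and Nes (nestin). They were measured in dorsal root ganglia (DRG), which hold the cell bodies of the sensory neurons whose axons run in the sciatic nerve, on 9 arrays. The 5 injured samples were L3/L4 DRG taken 3 days after the sciatic nerve was cut, and the 4 uninjured samples were L3/L4 DRG of uncut nerves. Both groups came from adult mice labelled cre.neg and jun.wt, so all were without Cre and with wild-type Jun. The labels give no strain, do not say whether each array was 1 animal, and do not say whether uninjured ganglia came from the other side of injured mice. The p-values therefore measure the spread between these samples, which may be in part technical.

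Each array compared DRG RNA, labelled with the red dye Cy5, with a universal mouse reference RNA, labelled with the green dye Cy3, in the same orientation on every array. A value is the log2 of the Cy5 signal over the Cy3 signal of a probe after background correction and normalization, so that it is a level relative to a reference that was the same on all arrays. Such levels were compared between arrays for a given probe, and only changes were compared between probes. Probes were taken by the gene symbol or its older form in the scanner files (Nef3 for Nefm, Prph1 for Prph) or by accession. This gave 14 probes of 8 genes, among 41174 probes of 27670 genes on the array. Of these, 11 probes had a Cy5 signal well above background on 4 or more arrays and were tested, among 31186 probes tested in all, and every one of the 8 genes kept at least 1 probe. The uninjured arrays are named C1 to C4 and the injured arrays T1 to T5. The median Cy5 signal of an array was between 156 on T5 and 238 on T2, and the number of arrays limits the precision.

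Intermediate filaments are rope-like polymers that give cells mechanical strength. In large axons the neurofilament triplet forms the bulk of the cytoskeleton and sets axon diameter: Nefl builds the core, and the long tails of Nefm and Nefh project from it. Peripherin joins the same filaments in peripheral neurons. Vimentin is the filament of fibroblasts, endothelium and immature glia, GFAP that of astrocytes and of some peripheral glia, and nestin is best known from neural progenitors. After peripheral nerve injury, sensory neurons are known to shift from the filament genes of a mature axon to those of a growing one, and glia around them to raise GFAP.

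The promoter stretches of 3 of these genes are shown because they are the ones whose change after injury was called (Gfap and Vim) or differed from that of Nefl (Prph). They are from RefSeq on GRCm38.p6, on the coding strand, each from 143 bases before the annotated start to 7 bases after it. Capitals mark any match, on either strand, to TGANTCA (the AP-1 motif that Jun and Atf3 bind), TGACGTCA (the cAMP response element), TTCNNNGAA (the STAT motif), TATAAA or CCAAT.
Gfap (chr11:102897194-102897343, minus strand): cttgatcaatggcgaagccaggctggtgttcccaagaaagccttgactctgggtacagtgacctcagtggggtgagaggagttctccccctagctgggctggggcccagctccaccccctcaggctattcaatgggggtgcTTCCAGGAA
Vim (chr2:13574168-13574317, plus strand): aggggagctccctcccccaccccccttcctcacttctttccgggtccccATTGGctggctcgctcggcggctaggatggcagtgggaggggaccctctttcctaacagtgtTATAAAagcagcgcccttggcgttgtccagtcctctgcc
Prph (chr15:99055031-99055180, plus strand): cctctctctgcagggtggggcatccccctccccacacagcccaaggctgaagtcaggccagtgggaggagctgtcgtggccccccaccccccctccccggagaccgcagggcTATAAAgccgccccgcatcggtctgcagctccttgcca

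RefSeq promoter windows, of the same length for every gene, were at hand for 5 of the 8 genes (Prph, Ina, Gfap, Vim and Nes). The AP-1 letters were in none of the 5 windows and in 7.81% of all 32851 windows, and the cAMP response element was in none of the 5 and in 1.79% of all. The STAT letters were in the Gfap window alone among the 5, ending at base 7 after the start, and in 8.30% of all windows. TATAAA was in the Vim and Prph windows and in 13.6% of all, and CCAAT was in the Vim window, at 2 places, and in 37.4% of all. These are matches of letters, described for these windows only.

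The injury labels were checked first on genes that DRG neurons are known to switch on after axotomy. Atf3, a transcription factor of injured sensory neurons, was between -1.09 and -0.90 on the uninjured arrays and between 4.03 and 4.25 on the injured arrays, a rise of 5.14 ± 0.07 (log2, SE, adjusted p = 2.28e-11). Sprr1a, Jun and Gap43 rose by 4.99, 1.77 and 0.62 (log2), and the calls of Jun and Gap43 were lost with slide as a fixed block (adjusted p = 0.0837 and 0.569). A single slide held both groups (C1 beside T1, T2 and T5), so in such a fit the change rests on C1 as the uninjured sample. All 9 pan-neuronal, all 7 satellite glia and all 7 myelinating Schwann cell markers looked at passed the filter on Cy5.

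Of the 8 filament genes, each taken by its brightest probe, 2 were called at an adjusted p under 0.05 by limma's moderated test, Gfap and Vim, and both were higher in injured DRG. That is 25% of the genes. Of all 20898 genes tested, each by its brightest probe, 24.9% were called, 11.2% higher and 13.7% lower, and of all probes tested 23.5% were called, 10.5% higher and 13% lower. Gfap passed the filter, and stood by probe 1, because of the injured arrays: on the uninjured arrays this probe was well above background on 1 of 4 and dimmer than probe 2. With each gene taken by its brightest probe on the uninjured arrays, 1 of the 8 genes was called, Vim. The median change over the 8 genes was 0.08 (log2), and over all probes tested it was -0.0045. The neurofilament triplet, which makes up most of the filament of large axons, did not pass the test in either direction. In whole ganglia, a change in the number of cells of a type cannot be told apart from a change in RNA per cell.

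**Figure D1:**
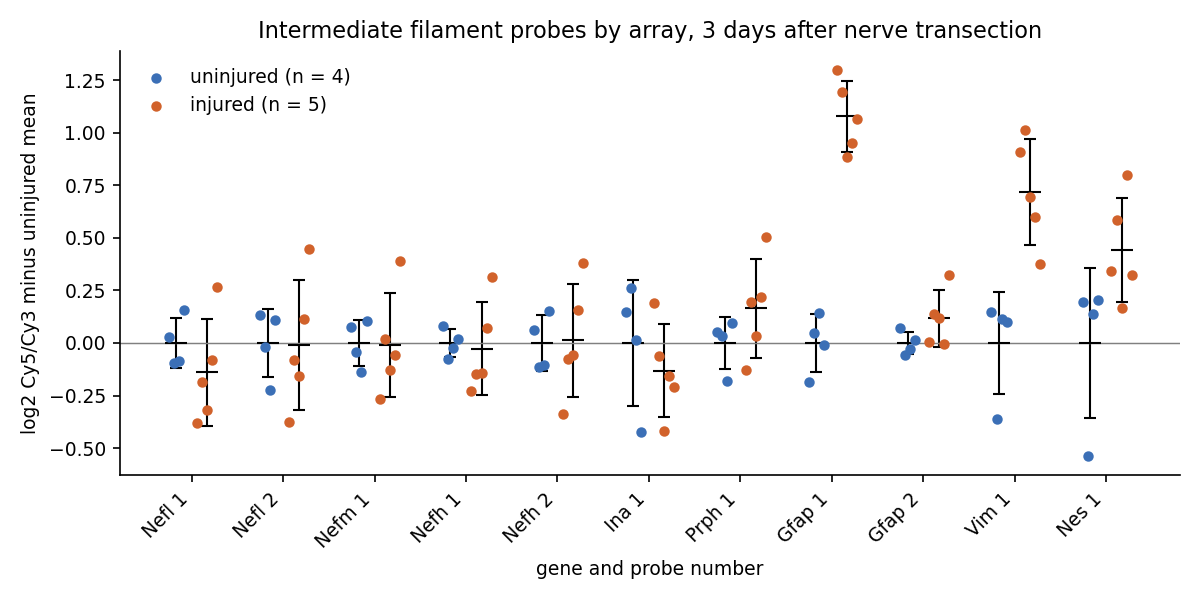
Log2 Cy5/Cy3 of the 11 tested intermediate filament probes on each array, each probe set to 0 at its uninjured mean (blue points: 4 uninjured arrays; orange points: 5 injured arrays; bars: group mean and SD). The injured points of Gfap probe 1 and Vim probe 1 lie above every uninjured point, while those of the neurofilament probes spread on both sides of 0.

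Nefl is the subunit on which neurofilament assembly depends. Its first probe (NM_010910, chr14:62946259-62946319 on mm7, plus strand) was at 10.04, 9.92, 9.93 and 10.17 on C1 to C4 and at 9.64, 9.83, 9.70, 9.93 and 10.28 on T1 to T5 (log2 ratio). Injured samples T1, T2 and T3 lay below every uninjured sample and T5 lay above them all, so the groups overlapped. The change was -0.14 ± 0.12 (log2, SE, adjusted p = 0.460), with a 95% interval in fold of 0.752 to 1.09. The second probe (AK149219, chr14:62947487-62947546, the same strand) changed by -0.01 ± 0.15 (log2, SE, adjusted p = 0.971).

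Nefm, the medium subunit, was measured by 10 spots of 1 probe (NM_008691, chr14:62978814-62978873, minus strand), whose log2 ratios within an array had an SD of 0.0525 to 0.122. Its level was 7.20, 7.08, 6.99 and 7.23 on C1 to C4 and 6.86, 7.15, 6.998, 7.07 and 7.52 on T1 to T5 (log2 ratio). The injured samples ran from below the lowest to above the highest uninjured one, and the means differed by less than the spread between samples (-0.01 ± 0.12, log2, SE, adjusted p = 0.976). A second probe listed under this gene (AK042598) was well above background on none of the 9 arrays. In the files' coordinates it lay 36967 bases from the first Nefm probe and 4412 bases from the first Nefl probe, so that its name rests on the array's design.

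Nefh, the heavy subunit with the most phosphorylated tail, had 2 probes, both of NM_010904. The first (chr11:4890918-4890977, minus strand) was at 6.68, 6.52, 6.57 and 6.62 on C1 to C4 and at 6.37, 6.45, 6.45, 6.67 and 6.91 on T1 to T5 (log2 ratio). T1, T2 and T3 were again below every uninjured sample and T5 above, with a change of -0.03 ± 0.10 (log2, SE, adjusted p = 0.890). The second probe (chr11:4891629-4891688) changed by 0.01 ± 0.13 (log2, SE, adjusted p = 0.961).

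Over the 5 tested neurofilament probes, the 95% intervals of the change ran from a fold of 0.752 at the lowest to 1.24 at the highest. T5 had the highest value of the injured group on each of these probes and T1 the lowest. T5 was also the dimmest array in Cy5. Without T5, the change of Nefl probe 1 was -0.24 (adjusted p = 0.0658) and those of the other 4 probes were between -0.12 and -0.08 (log2), with none past the threshold.

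The triplet differed between the ratio and the Cy5 channel alone. When the Cy5 channel was taken alone, with quantile normalization between arrays, Nefl probe 2, Nefh probe 1 and Nefh probe 2 were lower in injured DRG, by -0.27 ± 0.06, -0.33 ± 0.07 and -0.44 ± 0.10 (log2, SE, adjusted p = 0.0103, 0.00981 and 0.00886), against 12.2% of all probes that were called lower in Cy5 alone. On this scale Nefh probe 1 was at 16.98, 17.18, 17.13 and 17.16 on C1 to C4 and at 16.89, 16.76, 16.66, 16.79 and 16.83 on T1 to T5 (log2 Cy5 signal), and the groups did not overlap. Nefl probe 1 and Nefm changed by -0.21 and -0.18 without passing the test (adjusted p = 0.0930 and 0.187). Quantile normalization sets a value by its rank on the array. Nefl probe 1 was thereby at 18.72 on C1, C2, C3 and T1 and at 18.56 on T2, T3 and T5 (log2 Cy5 signal), so its test in Cy5 alone reflects rank. The Cy3 channel taken alone, which held the same reference RNA on all arrays, also gave lower values on the injured arrays for Nefh, by -0.26 ± 0.08 for probe 1 and -0.40 ± 0.11 for probe 2 (log2, SE), and by -0.18 ± 0.11 for Nefl probe 2. None of the 11 filament probes passed the test in Cy3, where 0.0994% of all probes did. The ratio subtracts this movement of the reference channel and Cy5 alone does not, and its part in the fall in Cy5 was not tested.

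**Figure D2:**
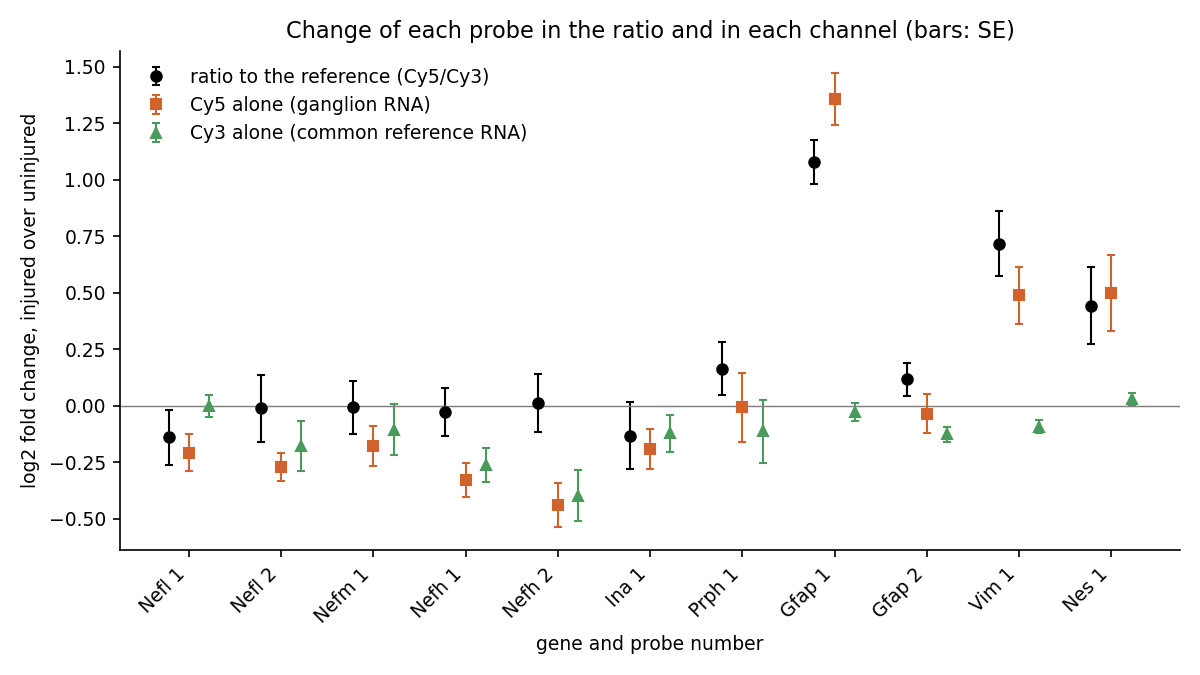
Log2 fold change of injured over uninjured DRG for each tested probe (black circles: Cy5/Cy3 ratio; orange squares: Cy5 channel alone; green triangles: Cy3 reference channel alone; bars: SE). For the 2 Nefh probes the ratio is near 0 while both channels are below 0, and for Gfap probe 1 and Vim probe 1 the ratio and Cy5 are both above 0.

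Ina encodes alpha-internexin, a neuronal filament protein more typical of the central nervous system. Its probe (NM_146100, chr19:46925057-46925116, plus strand) was at 3.56, 3.68, 3.43 and 2.99 on C1 to C4 and at 3.60, 3.35, 2.99, 3.26 and 3.20 on T1 to T5 (log2 ratio). The groups overlapped across nearly the whole range, and the change was -0.13 ± 0.15 (log2, SE, adjusted p = 0.577). The reference signal of this probe was well above background on 1 of the 9 arrays. On C4, the lowest uninjured array in the ratio, the mean Cy3 signal was 71, against 47 to 52 on the other arrays. In Cy5 alone C4 was at 10.01 and the other uninjured arrays were at 10.07 to 10.34 (log2 Cy5 signal).

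Prph encodes peripherin, the filament protein of peripheral neurons that is most abundant in small sensory neurons. Its probe (NM_013639, chr15:99042273-99042332, plus strand) was at 4.15, 4.14, 3.92 and 4.20 on C1 to C4 and at 3.97, 4.30, 4.14, 4.32 and 4.60 on T1 to T5 (log2 ratio). T2, T4 and T5 lay above every uninjured sample and the other 2 within their range, with a change of 0.16 ± 0.12 (log2, SE, adjusted p = 0.349). In Cy5 alone the change was -0.01.

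Since T5 was the highest and T1 the lowest injured array for several of these genes, the change of 1 gene was also compared with that of another on the same array, for 11 pairs, by an exact two-sided permutation of the array labels. Nefl minus Prph was 5.89, 5.78, 6.01 and 5.98 on C1 to C4 and 5.66, 5.54, 5.56, 5.61 and 5.68 on T1 to T5 (difference of log2 ratios). Every injured sample lay below every uninjured one, so Nefl fell relative to Prph by 0.30 ± 0.06 on the log2 scale (SE, exact p = 0.00794, the smallest the design allows, adjusted p = 0.0437 over the 11 pairs). That adjusted p needed a second pair at the same exact p, Nefl minus Gfap, which rests on Gfap probe 1, near background in uninjured DRG. With the probes of a gene averaged, Nefl minus Prph was alone at that exact p, and its adjusted p was 0.0873. With the Cy5 channel alone this difference was -0.20 (exact p = 0.317, adjusted p = 0.437) and with the authors' processed values -0.32 (exact p = 0.0159, adjusted p = 0.0873).

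Within the triplet the changes differed less. The change of Nefl minus that of Nefm was -0.13 ± 0.04 (log2, SE, exact p = 0.0317) and minus that of Nefh -0.11 ± 0.05 (log2, SE, exact p = 0.0794), with adjusted p of 0.0873 and 0.146. Nefm and Nefh changed by amounts that differed by 0.02 ± 0.06 (log2, SE, exact p = 0.770). Nefl against Ina gave -0.01 ± 0.26 and Prph against Ina 0.30 ± 0.24 (log2, SE, exact p = 0.952 and 0.278), where the spread of Ina was wide.

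**Figure D3:**
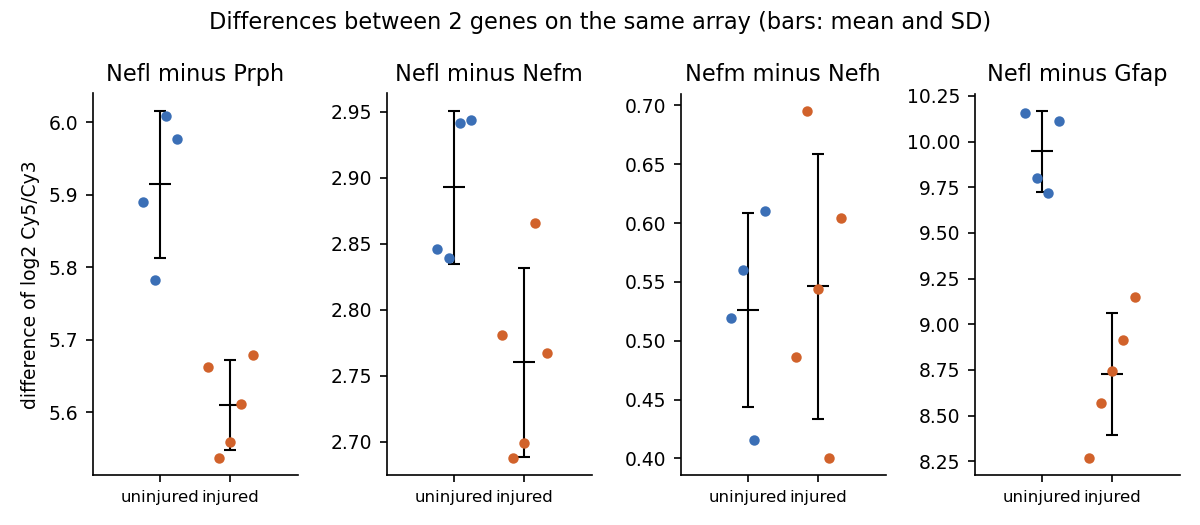
Difference of the log2 Cy5/Cy3 of 2 genes on the same array, by array (blue: 4 uninjured; orange: 5 injured; bars: mean and SD; each panel has its own axis). Nefl minus Prph and Nefl minus Gfap separate the groups, Nefl minus Nefm overlaps at 1 injured array, and Nefm minus Nefh overlaps throughout.

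Gfap, the glial filament gene, was called higher on 1 of its 3 probes. Probe 1 (AK140151, chr11:102999540-102999599 on mm7, minus strand) was at -0.11, 0.12, 0.21 and 0.06 on C1 to C4 and at 1.37, 1.26, 0.95, 1.02 and 1.13 on T1 to T5 (log2 ratio). All 5 injured samples lay above all 4 uninjured ones, as they did for 22.6% of all probes in one direction or the other. The means differed by 1.08 ± 0.10 (log2, SE, adjusted p = 3.01e-05, exact p = 0.00794). Since the uninjured level was near background, no fold is given for this probe.

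The signal behind this rise was dim. The mean Cy5 signal of the probe was 60 to 72 on the uninjured arrays, well above background on 1 of the 4, and 147 to 244 on the injured arrays, well above background on all 5. In Cy3 it was well above background on none of the 9. The difference on this scale, with an offset of 50 added to each channel, understates the change of so dim a probe, and its SE does not cover that. It was 1.36 ± 0.11 (log2, SE) in Cy5 alone. Within the slide that held both groups it was 1.37, where the only uninjured array was C1, the lowest uninjured array for this probe.

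The other 2 Gfap probes were dim on every array, which limits what they can show. Probe 2 (NM_010277, chr11:102998514-103000963) had Cy5 signals of 72 to 93 on the uninjured and 65 to 87 on the injured arrays, and changed by 0.12 ± 0.08 (log2, SE, adjusted p = 0.303). It changed by -0.03 in Cy5 alone, and in Agilent's own ratio, which has no offset, it was called higher (adjusted p = 0.00460). Probe 3 (K01347, 10 spots, chr11:102996643-102996703) was well above background on no array, with Cy5 signals of 50 to 67. Its log2 ratio was 0.03 to 0.09 on the uninjured and 0.08 to 0.14 on the injured arrays (exact p = 0.0238), and the groups overlapped. The ends of probe 2, a probe of 60 bases, lay 2450 bases apart in the files' coordinates, so it crossed at least 1 intron, and probe 1 lay between those ends. By these coordinates probe 1, also of 60 bases, cannot lie wholly within the spliced RNA that probe 2 matches. The called rise is thus of sequence at least partly outside that RNA. In which exon or intron of any other Gfap transcript probe 1 lies was not analysed here, since the annotation at hand is of another build.

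Vim, the filament of glia, fibroblasts and endothelium, was called higher on its 1 tested probe (NM_011701, chr2:13521763-13521822, plus strand). It was at -2.33, -2.84, -2.36 and -2.38 on C1 to C4 and at -1.57, -1.47, -1.78, -1.88 and -2.11 on T1 to T5 (log2 ratio). The groups did not overlap, with T5 the lowest injured sample and C2 well below the other uninjured ones. The rise was 0.72 ± 0.14 (log2, SE, adjusted p = 0.00451, exact p = 0.0159), a fold of 1.64 with a 95% interval of 1.32 to 2.05. It was 0.56 (adjusted p = 0.114) when arrays were centred on their medians rather than by loess, 0.62 (adjusted p = 0.231) with slide as a block, which is also its value within the slide that held both groups, and 0.49 in Cy5 alone (adjusted p = 0.0193). The second probe (AK033175, chr2:13516297-13516356) was well above background in Cy5 on 1 of the 9 arrays and was not tested.

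Nes, the filament gene of neural progenitors, was measured by 10 spots (NM_016701, chr3:88094187-88094246, plus strand). It was at -1.10, -1.83, -1.15 and -1.09 on C1 to C4 and at -0.95, -0.71, -1.13, -0.50 and -0.97 on T1 to T5 (log2 ratio). T3 fell among the uninjured samples and the other 4 injured samples lay above them. The difference of 0.44 ± 0.17 (log2, SE, exact p = 0.0317) did not pass adjustment over all probes (adjusted p = 0.0861), and without C2 it was 0.26 (adjusted p = 0.184).

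**Figure D4:**
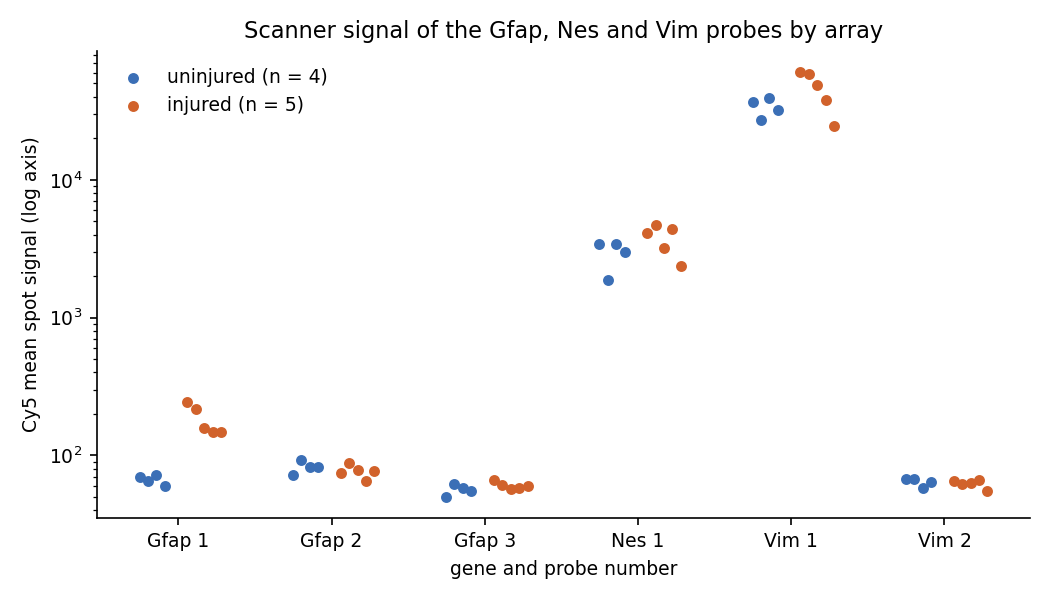
Mean Cy5 spot signal, before any correction, of the Gfap, Nes and Vim probes on each array, on a log axis (blue: 4 uninjured; orange: 5 injured). Gfap probe 1 is at 60 to 72 on uninjured and 147 to 244 on injured arrays, while Gfap probes 2 and 3 and Vim probe 2 stay below 100 on every array.

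Among Gfap, Vim and Nes, the change of Vim minus that of Nes was 0.27 ± 0.16 (log2, SE, exact p = 0.159, adjusted p = 0.218). The pairs with Gfap rest on probe 1, near background in uninjured DRG, so that they are given by their tests and not by their size. Gfap against Vim and against Nes did not pass (exact p = 0.103 and 0.0476, adjusted p = 0.162 and 0.105). Gfap against Vim passed with Agilent's ratio, with median centring, with Cy5 alone and without C2 (exact test, adjusted p = 0.0218, 0.0437, 0.0437 and 0.0491). Gfap against Nes passed with Agilent's ratio, with median centring and without C2 (exact test, adjusted p = 0.0218, 0.0437 and 0.0491). For Nefl minus Gfap the groups did not overlap (exact p = 0.00794, adjusted p = 0.0437), and with the authors' values or with the probes of a gene averaged the adjusted p of the exact test was 0.0873. Relative to Vim, Nefl changed by -0.86 ± 0.24 (log2, SE, exact p = 0.0317, adjusted p = 0.0873), and T5 alone overlapped the uninjured samples.

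Markers of the other cells in a ganglion varied beside these changes. Taken as the mean of a list relative to the uninjured mean, the 7 satellite glia markers were between -0.12 and 0.13 on the uninjured and between -0.0037 and 0.45 on the injured arrays (log2). Of them 2 were called (28.6%, beside 24.9% of all genes tested). Glul, the glutamine synthetase of glia, rose by 0.78 and Slc1a3, a glial glutamate transporter, by 0.22. The rest of this list was not called, with changes from -0.10 to 0.10 (log2). None of the 7 myelinating Schwann cell markers was called. The 10 macrophage markers were between -0.45 and 0.38 on uninjured and between 0.03 and 1.00 on injured arrays. Of them 1 was called (10%), Aif1, a macrophage protein that rose by 0.90. Of 5 endothelial markers 1 was called (20%, Tek, by 0.47), and of 6 fibroblast markers none. The uninjured array C2, the lowest for Vim and Nes, was also the lowest of the 9 for the macrophage (-0.45), fibroblast (-0.57), endothelial (-0.30) and Schwann cell (-0.42) lists. The part of these cells in the levels of Vim, Nes and Gfap was not tested.

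Skeletal muscle markers were raised by 2.19 on T2 and by 3.67 on T4 and red blood cell markers by 1.57 on T2 and by 1.11 on T5 (log2, mean of each list), and none of either list was called. Without T2 and T4, Gfap and Vim remained called, at 1.08 and 0.66 (log2, adjusted p = 0.000679 and 0.0284). Without T2, T4 and T5, on 2 injured samples, Vim was again called, at 0.80 (adjusted p = 0.0129). Nefl probe 1 was then lower by -0.35 (adjusted p = 0.0493). Gfap probe 1 was at 1.09 (adjusted p = 0.00204), but it had passed the filter on dim probes only with arrays left out here.

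Markers of the neurons that carry these filaments changed in both directions. Of 9 pan-neuronal markers 3 were called (33.3%, beside 24.9% of all genes tested), all of them lower (13.7% of all genes tested were lower). Isl1, a transcription factor of sensory neurons, fell by 0.51 on the log2 scale. Syt1, a synaptic vesicle protein, and Elavl4, a neuronal RNA-binding protein, fell by 0.31 and 0.28. Of 7 markers of large-diameter neurons, the most neurofilament-rich, 3 were called (42.9%, beside 24.9% of all genes tested). Kcns1 and Cntnap2 fell by 0.69 and 0.37 and Spp1 rose by 0.57 on the log2 scale. None of the 5 tested markers of small-diameter neurons was called. With slide as a fixed block, Isl1 and Glul were the marker genes still called, and the adjusted p of the other markers named here was between 0.0895 and 0.308.

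Other intermediate filament genes were read from a list of 17, of which 16 were tested. Of these 3 were higher and 1 lower, 25% called, beside 24.9% of all genes tested, with a median change of 0.12 (log2). Lmna, which encodes the A-type lamins of the nuclear envelope, was at -1.50, -1.37, -1.38 and -1.23 on C1 to C4 and at -0.88, -0.76, -1.05, -0.90 and -0.51 on T1 to T5 (log2 ratio), with no overlap. It rose by 0.55 ± 0.10 (log2, SE, adjusted p = 0.00309). Lmnb1, a B-type lamin, rose by 0.39 and Krt23, a type I keratin, by 0.36 (log2), and both calls were lost with slide as a fixed block (adjusted p = 0.450 and 0.531). Bfsp1, filensin of the lens, was at 1.15 to 1.42 on the uninjured and 0.70 to 0.86 on the injured arrays and fell by 0.48 on the log2 scale (adjusted p = 0.000804, and 0.136 with slide as a fixed block). Des, the filament of muscle, changed by 0.32 ± 0.15 (log2, SE, adjusted p = 0.146) and was highest on T4.

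Synm encodes synemin, a large filament protein that co-assembles with vimentin and with neurofilaments, and is described here because its values were seen to stand out. Its brighter probe was at 5.98, 6.02, 6.81 and 5.995 on C1 to C4 and at 6.47, 1.08, 5.44, 5.52 and 5.40 on T1 to T5 (log2 ratio), and was not called (-1.42 ± 0.88, log2, SE, adjusted p = 0.283). T2 stood far below every other array there, and without it the change was -0.50 (adjusted p = 0.221). The dimmer probe, with the same accession, was at 4.82, 4.75, 4.83 and 4.80 on C1 to C4 and at 4.62, 4.34, 4.47, 4.53 and 4.32 on T1 to T5. It was lower in every injured sample, by -0.34 ± 0.07 (log2, SE, adjusted p = 0.00593), and by -0.32 without T2 (adjusted p = 0.0157).

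Genes that link, move, phosphorylate or destroy filaments were read from a pair of lists, beside 24.9% of all genes that were called. Of 7 tested plakins and other linkers 1 was called (14.3%), Macf1, which ties actin to microtubules, with a rise of 0.23 (log2). That call was lost with slide as a fixed block and with median centring (adjusted p = 0.348 and 0.572). Of 19 genes of filament transport, phosphorylation and turnover described here, 2 were called (10.5%) and both fell. Cdk5r1, p35, the neuronal activator of the kinase Cdk5 that phosphorylates neurofilament tails, was at 4.03, 4.03, 3.90 and 3.97 on C1 to C4 and at 3.31, 3.25, 3.41, 3.22 and 3.14 on T1 to T5 (log2 ratio). The groups did not overlap, and it fell by 0.71 on the log2 scale (SE 0.07, adjusted p = 4.09e-05), while Cdk5 itself changed by -0.05 (adjusted p = 0.768). Trim2, a ubiquitin ligase reported to act on Nefl, fell by 0.40 on the log2 scale (adjusted p = 0.00350), a call lost with slide as a fixed block and with median centring (adjusted p = 0.0731 and 0.0574). The kinesins Kif5a and Kif5c, motors for neurofilament transport, changed by -0.06 and 0.08 without passing the test (adjusted p = 0.628 and 0.524).

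**Figure D5:**
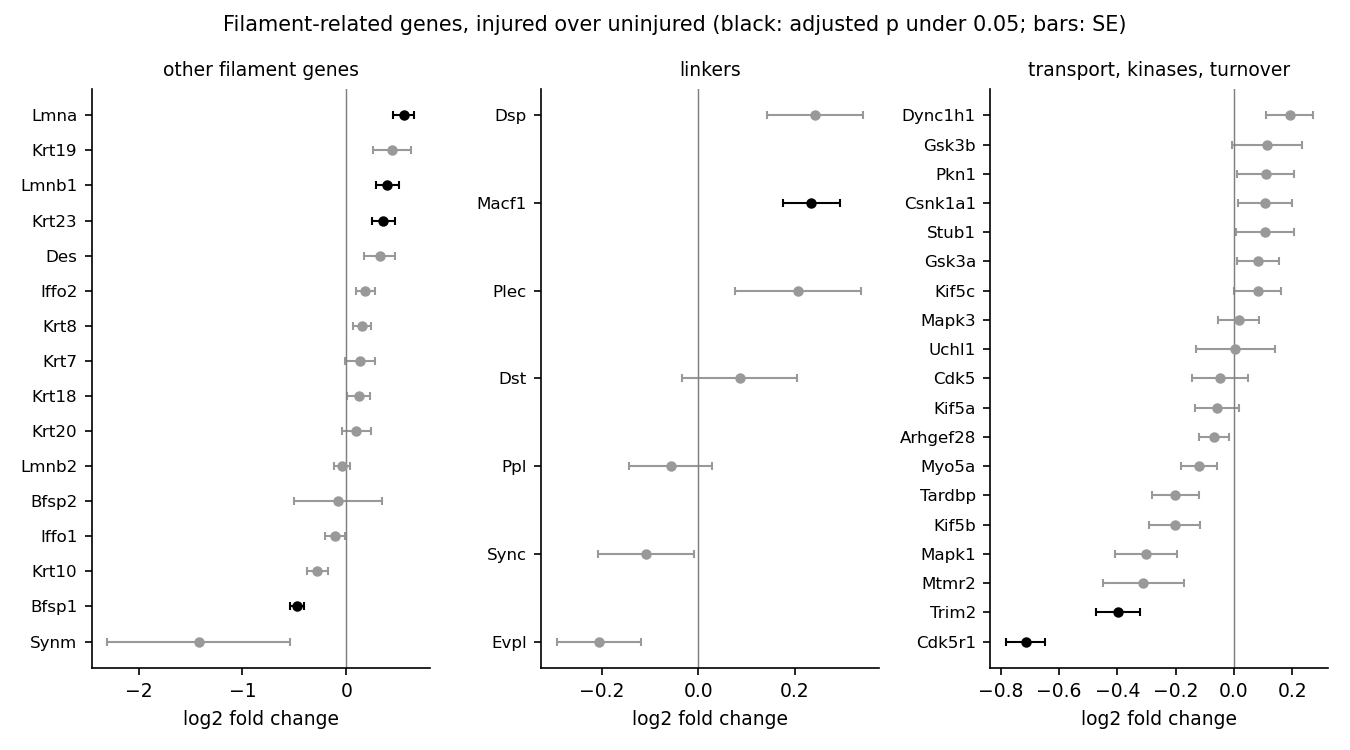
Log2 fold change of injured over uninjured DRG, with SE, for the tested genes of 3 filament-related lists (black: adjusted p under 0.05; grey: not). Lmna at 0.55 is the highest black point and Cdk5r1 at -0.71 the lowest, and Synm has the widest bar, with an SE of 0.88.

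The genes most like the called members over the 9 arrays, by root mean square difference after setting each to its uninjured mean, were sought among 16341 genes outside the lists. For Gfap probe 1 these were Sox7 (0.0920, log2) and Cyp26a1 (0.120), which rose by 1.15 and 0.97. For Vim they were Ptp4a1 (0.0955) and Txnrd1 (0.106), which rose by 0.72 and 0.75.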

How the data were processed

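RNA of 5 injured and 4 uninjured L3/L4 DRG was hybridized by the authors with a common reference to 2-colour Agilent mouse arrays. The labels and methods give 3 days after transection, while other passages of the study give 24 hr, L4 DRG or a nerve crush. The scanner intensity columns, as deposited, are mean spot signal and median local background per channel. Per the file headers, they come from Agilent Feature Extraction 10.5.1.1 with probe coordinates on mm7, and the log10 ratios in the same files are Agilent's own, background-corrected and dye-normalized. The series table holds the authors' log2 ratios of Cy5 over Cy3, processed with limma per the labels. On each array their slope against the ratios made here was between 1.00 and 1.01. No column of other samples was met (0).

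The members and gene lists were chosen with earlier results of these data known. In R 4.3.3 with limma 3.58.1, background was corrected by normexp (offset 50), fitted without spots flagged for non-uniform local background. T2 held 20 such spots, and 7 spots on T2 were more than 100 units below background in Cy5. With the flagged spots fitted, the slope of T2 was 0.813. Loess within each array followed. Control spots had no weight in the loess, flagged spots were left out, repeated spots were averaged, and a probe needed a Cy5 signal well above background on 4 or more arrays. Of 41174 probes, 22951 were named by accession, 6659 by the symbol in the file and 3109 by an older name, and 8455 kept the file's name. A gene stood by its brightest probe, and every probe of the 8 genes was reported. The 2 groups were compared by the moderated test of limma, two-sided, with Benjamini-Hochberg adjustment over the 31186 probes and an adjusted p under 0.05. Single values and 11 pairs of genes had an exact permutation test, two-sided, whose smallest p is 0.00794. The test was tried on simulated data. Genes named beside the members were the called genes of largest change, up to 3 a direction in the filament lists and up to 2 in the marker lists, and for likeness the 2 nearest genes. Outside this rule, Elavl4, Des, Synm, Cdk5, Kif5a and Kif5c were named after their values were seen. Arrays lay on 3 slides: C2 to C4 on slide 1, C1, T1, T2 and T5 on slide 2, T3 and T4 on slide 3. Only slide 2 held both groups, so with slide as a fixed block a change is that of T1, T2 and T5 against C1. The lowest correlation between 2 arrays was 0.943. Promoters were from RefSeq (GRCm38.p6). Figures were drawn with Python and matplotlib. The check of Synm without T2, the settings without T2, T4 and T5, the choice of probes on the uninjured arrays and the use of Cy3 alone were chosen after seeing the data. Other experiments of the study were not used here. An item of the gene lists is not reported here.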

Additional observations from a re-analysis of the deposited data

Results flagged for a closer look

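Of 28 groups of arrays examined, 1 for each probe of the 8 genes and each condition, 3 had an array whose distance from the nearest other was large for the range of its group, where chance gives about 1 in 20. The uninjured array C2 was far below the other uninjured arrays for Vim probe 1 (-2.84, the nearest at -2.38, log2 ratio) and for Nes (-1.83, the nearest at -1.15). Without C2, Vim was still higher in injured DRG, at 0.60 (log2, adjusted p = 0.0109). The injured array T5 was below the other injured arrays for Nefm probe 2 (-0.20, the nearest at 0.09), a probe that was at background on every array.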

How the results depend on the processing

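Gfap probe 1, which entered the test through the injured arrays, kept its direction and stayed past the threshold under every alternative that tested it. Its change ran from 0.93 with normexp on all spots to 4.44 with Agilent's ratio (log2), so its size depends on the processing. Within the slide that held both groups it was 1.37, with C1 as the only uninjured array. With its tested probes averaged, Gfap rose by 0.60 (log2). Vim kept its direction throughout and was lost with median centring (0.56) and with slide as a block (0.62). Filament genes called were 1 with median centring, with slide as a fixed block and with the probe of each gene that was brightest on the uninjured arrays. They were also 1 with the filter on both channels, which removes the Gfap probes and Ina. They were 3 in Cy5 alone, with slide as a random block and without T2, T4 and T5. All probes called fell from 7338 to 3519 with median centring, to 1507 with slide as a block, to 4037 without T2 and T4 and to 3517 without T2, T4 and T5. List genes called were 22, and 14 with Agilent's ratio, 6 and 41 with slide as a fixed and a random block, 13 without T2 and T4 and 12 without T2, T4 and T5. Gene pairs called were 2, and 5 with Agilent's ratio, 4 with median centring, 0 with the authors' values and 0 when probes of a gene were averaged. Leaving out 1 array gave 0 to 4 pairs, 5358 to 7487 probes, 17 to 25 list genes and 2 filament genes. The smaller design raises the smallest exact p, and the 4 pairs were called without C2. The causes were not tested.

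Values near 0 changed sign without passing the test. Nefh probe 2 was -0.044 with normexp on all spots, -0.11 with median centring, -0.00037 with the authors' values, -0.075 with slide as a block, -0.029 with array weights, -0.0055 without T2 and T4 and -0.20 without T2, T4 and T5, and in Cy5 alone it was -0.44 and called. Nefl probe 2 was 0.0105 with the authors' values and 0.025 with slide as a random block. Nefm probe 1 was 0.013 with Agilent's ratio and 0.019 with slide as a random block. Ina was 0.74 with Agilent's ratio. Prph was -0.0059 in Cy5 alone and -0.046 without T2, T4 and T5, and Gfap probe 2 was -0.034 in Cy5 alone. Leaving out 1 array gave -0.12 to 0.080 for Nefl probe 2, -0.11 to 0.058 for Nefm probe 1, -0.11 to 0.023 for Nefh probe 1 and -0.079 to 0.10 for Nefh probe 2. Nes was called only with slide as a random block (0.49, adjusted p = 0.0165), where the correlation within slides was -0.20. Lmna and Cdk5r1 were called in all 25 alternatives, Bfsp1 in 22 of 24, Trim2 in 22 of 25, Macf1 in 20 of 25, Lmnb1 in 15 of 25 and Krt23 in 13 of 24. Of the markers named, Isl1 and Glul were called in all 25, Slc1a3 in 12, Syt1 in 11, Tek in 14 and Gap43 in 11. No paired analysis was possible because the replicate numbers are accession order and pair no samples. Gfap probes 2 and 3, Vim probe 2 and Nefm probe 2 were dim on every array, which limits what they can show.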
